A study of Homo sapiens with 12 samples.

Results

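The promoters of 10 imprinted genes were followed across CUT&RUN peak lists from BON1, a cell line from a human neuroendocrine tumor of the pancreas: H19, IGF2, MEG3, KCNQ1OT1, PEG3, PEG10, MEST, SNRPN, PLAGL1 and NNAT. They were taken by name from a list of 10 genes, of 38864 protein-coding and long noncoding RNA (lncRNA) genes annotated on chromosomes 1 to 22, X and Y. A member had a peak when at least 1 bp of a deposited peak lay within 1, 2.5 or 10 kb of its 5′ end, the most upstream annotated position, or of any annotated transcript start. In CUT&RUN an antibody guides a nuclease to chromatin and the released fragments are sequenced. Here the antibody was against H3K4me3, the histone mark of active promoters, or was a rabbit anti-mouse IgG that measured background. Control cells (BON1/TGL/pQ) were compared with a derivative line, BON1/TGL/HA-Bcl-xL, that overexpresses an HA-tagged form of the anti-apoptotic protein Bcl-xL. Both lines were grown with puromycin, and 500000 cells were used per condition. The design asked whether Bcl-xL overexpression alters H3K4me3. Peak lists of 11 of the 12 labelled libraries were used. For H3K4me3 these were 3 control libraries (replicates 1 to 3) and 2 libraries of the HA-Bcl-xL line (replicates 2 and 3), and for IgG 3 libraries of each line. The first H3K4me3 replicate of the HA-Bcl-xL line was not analysed here. Values per library are given in the order of the replicate numbers. The labels do not say whether replicates were separate cultures, so the spread between them may be technical.

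Imprinted genes are expressed from the copy inherited from one parent. At most of them a CpG-rich control region is methylated in one germline, and the methylated copy lacks H3K4me3 while the unmethylated copy can carry it. Paternally expressed genes in the set are IGF2 (a fetal growth factor), KCNQ1OT1 (a lncRNA antisense to KCNQ1), PEG3 (a zinc finger protein), PEG10 (derived from a retrotransposon), MEST (a hydrolase-like protein), SNRPN (a splicing protein of the Prader-Willi region), PLAGL1 (a zinc finger transcription factor) and NNAT (a small membrane proteolipid). H19 and MEG3 are maternally expressed lncRNAs. Peak lists do not separate the parental copies.

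The sequences under peaks of 5 of the genes are shown, read 5′ to 3′ on the strand of the gene in GRCh37. They are limited to the longest part free of annotated untranslated exons. They were searched on both strands for the hexamer TGCCGC, the motif bound, when methylated, by ZFP57, a zinc finger protein that maintains imprints. The 5 stretches held it 0 times and are therefore in lower case throughout. They are short, 107 to 266 bases, so the lack of a match says little. Within 500 bp of a start, a longer window, the hexamer occurred 2 times at the first PLAGL1 start group, 2 times at the third of SNRPN and 1 time at the first of MEST. It occurred 0 times at the first group of PEG10 and at the last of IGF2. In that window 7 of the 10 genes held it at their 5′ end, against 34% of all genes. Among 5′ ends with the base composition of CpG islands, defined below, the share was 61.1%, and 6 of the 10 genes had such an end. The 5′ ends of MEST and PLAGL1 are not their imprinted starts, which are described below.
IGF2, chr11:2158536-2158666, minus strand: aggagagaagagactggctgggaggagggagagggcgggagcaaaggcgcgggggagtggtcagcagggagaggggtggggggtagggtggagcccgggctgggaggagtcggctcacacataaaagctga
SNRPN, chr15:25201261-25201526, plus strand: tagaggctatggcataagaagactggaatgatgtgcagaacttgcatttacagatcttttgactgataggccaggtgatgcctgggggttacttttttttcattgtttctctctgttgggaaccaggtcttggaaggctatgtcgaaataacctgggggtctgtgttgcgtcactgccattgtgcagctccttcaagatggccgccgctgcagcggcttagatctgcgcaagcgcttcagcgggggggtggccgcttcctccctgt
MEST, chr7:130125892-130126011, plus strand: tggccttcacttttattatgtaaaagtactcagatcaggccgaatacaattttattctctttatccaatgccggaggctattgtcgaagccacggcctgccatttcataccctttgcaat
PLAGL1, chr6:144385265-144385371, minus strand: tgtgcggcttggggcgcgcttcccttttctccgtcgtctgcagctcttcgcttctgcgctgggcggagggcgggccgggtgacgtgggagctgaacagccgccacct
PEG10, chr7:94284525-94284685, plus strand: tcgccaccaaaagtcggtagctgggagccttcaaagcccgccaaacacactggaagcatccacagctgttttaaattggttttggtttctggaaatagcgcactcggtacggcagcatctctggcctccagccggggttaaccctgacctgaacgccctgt

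In the H19 and IGF2 region, the insulator protein CTCF binds the control region on its unmethylated copy. The core of the CTCF motif, fixed at all but 2 of its 14 bases, was searched on both strands from 10 kb before to 10 kb after each member. It was found at 5 places at H19 and 1 at PLAGL1, and nowhere at the other 8 members. The lengths searched differed with the genes, so these counts have no background. Within 500 bp of the 5′ end 0 of the 10 genes held it, against 0.121% of all genes. The 5 H19 matches, in capitals, lay 2093 to 5144 bp upstream of the start group at 2017510 to 2019105 of chromosome 11 and among further H19 starts at 2020715, 2022940 and 2025782. They are shown, with 8 bases on each side of the coordinates given, because no H3K4me3 peak lay near them.
H19 site, chr11:2021198-2021211, minus strand: ggaagtggCCGCGCGGCGGCAGtgcaggct
H19 site, chr11:2022010-2022023, minus strand: ggaagtggCCGCGTGGCGGCAGtgcaggct
H19 site, chr11:2023443-2023456, minus strand: aaaagtggCCGCGCGGCGGCAGtgcaggct
H19 site, chr11:2023844-2023857, minus strand: ggaagtggCCGCGCGGCGGCAGtgcaggct
H19 site, chr11:2024249-2024262, minus strand: agaagtggCCGCGCGGCGGCAGtgcaggct
The nearest H3K4me3 peak of any library was 9806 bp from an H19 match. The match at PLAGL1 lay 27 bp from the peak of control replicate 2, 42 bp from that of HA-Bcl-xL replicate 2 and 27 bp from that of HA-Bcl-xL replicate 3.

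The lists of H3K4me3 libraries held 10247 to 17711 peaks, and the median peak rested on 9 to 12 fragments at its summit, as solved from its fold and p. The background floor, a relative measure of depth, was 0.0659, 0.0705 and 0.0478 fragments per base in the control and 0.0692 and 0.0681 in the HA-Bcl-xL libraries, so that control replicate 3 was the shallowest. The IgG lists held 1699, 1674 and 2113 peaks in the control and 268, 266 and 244 in the HA-Bcl-xL libraries. Of 6 neuroendocrine marker genes, CHGB and NEUROD1 had an H3K4me3 peak within 1 kb of a start in all 5 libraries, SYP in 2, CHGA and ENO2 in 1 each and INSM1 in none, though INSM1 had a peak within 2.5 kb in all 5. Of the markers of other cell types, PTPRC and ALB had no peak and COL1A1 had one in 1 library, as many as CHGA and ENO2. A further marker, PECAM1, was not matched and was not used. Of all genes, 17.1% had such a peak in all 5 libraries and 38.2% in at least 1.

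No IgG library had a peak within 10 kb of any start of any of the 10 genes. The nearest IgG peak to a member, at PLAGL1, was 12.9 kb away. Among all genes, 7.31% had an IgG peak within 10 kb of a start in at least 1 of the 6 libraries and 1.59% within 1 kb. Per library the share within 10 kb was 2.35, 1.96 and 2.65% in control and 0.324, 0.381 and 0.304% in HA-Bcl-xL cells. With shares this low, the lack of an IgG peak at 10 genes says little. H3K4me3 peaks lay within 1 kb of a start of 5 of the 10 genes (IGF2, MEST, PLAGL1, PEG10 and KCNQ1OT1), within 2.5 kb also at SNRPN, and within 10 kb also at NNAT and H19. MEG3 and PEG3 had none within 10 kb. The share of all genes with an H3K4me3 peak within 1 kb of a start in at least 1 library was 38.2%, and 17.1% had one in all 5, as IGF2 alone of the 10 did. The share in at least 1 library was 41.3% within 2.5 kb and 49.4% within 10 kb. Among protein-coding genes the share in at least 1 library was 56.6%, and among lncRNA genes 18.4%.

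**Figure D1:**
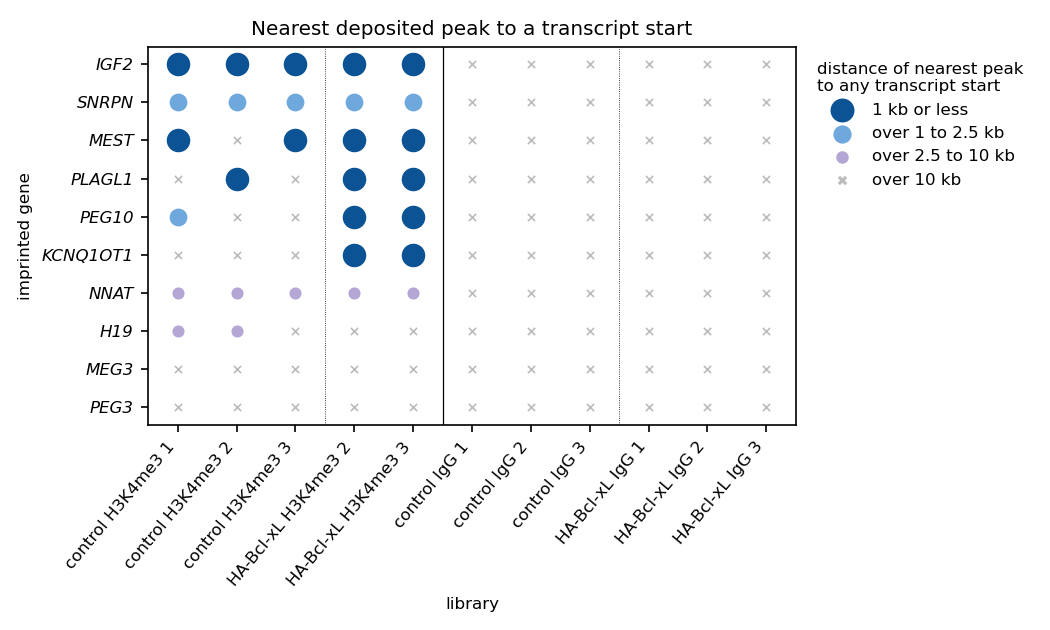
Distance class of the nearest deposited peak to any annotated transcript start, for each of the 10 imprinted genes (rows) in each library (columns). Large dark circles are peaks within 1 kb, and crosses are distances over 10 kb. IGF2 had a dark circle in all 5 H3K4me3 libraries, KCNQ1OT1 and PEG10 had one in the HA-Bcl-xL libraries, and the IgG columns hold crosses throughout.

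IGF2 (ENSG00000167244, chromosome 11, 2150342 to 2179621, minus strand, protein-coding) was marked at one of its downstream starts in every H3K4me3 library. Its 10 annotated starts fall into 5 groups when starts within 1 kb of each other are joined, and the peak lay at the last, most downstream group (2158517 to 2158535). The peak covered 2158518 to 2158635 in control replicate 1, 2158544 to 2158656 in replicate 2 and 2158530 to 2158654 in replicate 3. In the HA-Bcl-xL line it covered 2158521 to 2158622 and 2158518 to 2158666. The summits lay within 14 to 29 bp upstream of the nearest start, in an intron of longer IGF2 transcripts and of the INS-IGF2 readthrough gene. All 5 peaks overlapped one another. They rested on 15 to 18 fragments, and their percentile rank by the authors' −log10 p in their own list was 46.9, 70.7 and 72.2 in control and 61.9 and 74.5 in HA-Bcl-xL libraries. Control replicate 1 had another peak, at 2163161 to 2163272, 693 bp from the start group shared with the antisense gene IGF2-AS. The most upstream start group, at 2179566 to 2179621, had no peak in any library, so IGF2 had none within 1 kb of its 5′ end.

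The length of marked DNA at IGF2 could be compared between the lines. The bases under peaks within 1 kb of a start were 230, 113 and 125 in the control and 102 and 149 in the HA-Bcl-xL libraries, so the groups overlapped. The 230 bases of control replicate 1 were the sum of 118 at the shared downstream peak and 112 at its additional peak. At the shared peak alone the widths were 118, 113 and 125 bp in the control and 102 and 149 bp in the HA-Bcl-xL libraries. Over all bases, the log2 difference, HA-Bcl-xL minus control, was -0.39 (SE 0.416), with an adjusted p of 0.994 by limma over 6665 genes. It was -0.30 without control replicate 1, -0.06 without HA-Bcl-xL replicate 2 and -0.71 without HA-Bcl-xL replicate 3, so its size depended on single libraries. In this limma fit of all 5 libraries, without a replicate block, 0 genes (0% of those tested) passed an adjusted p of 0.05. The smallest adjusted p was 0.681, and 320 genes had an unadjusted p under 0.05. With the replicate number as a block 11 genes passed, as described at the end. IGF2 was the one member with a peak in all 5 libraries and hence the one tested. That it entered the fit required a peak in each library.

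MEST (ENSG00000106484, chromosome 7, 130126012 to 130146306, plus strand) was marked at its most upstream start in 4 of 5 libraries. The peak covered 130125892 to 130126213 in control replicate 1 and 130125909 to 130126009 in control replicate 3. Control replicate 2 had none within 45.1 kb. HA-Bcl-xL replicate 2 had a peak at 130125916 to 130126038, and replicate 3 had 2 peaks, at 130125900 to 130126010 and 130126135 to 130126213. The summits nearest the 5′ end lay 13 to 55 bp upstream of it, over an annotated exon of the antisense gene MESTIT1. They rested on 14 and 5 fragments in control replicates 1 and 3, and on 15 and 12 in the HA-Bcl-xL libraries. The control replicate 3 peak ranked at the 2.23 percentile of its list and the other peaks at the 58.2 to 81.9 percentile. The imprinted MEST transcript starts about where MESTIT1 begins, at the second start group (130131170 to 130132313), and no library had a peak within 1 kb of that group.

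PLAGL1 (ENSG00000118495, chromosome 6, 144261437 to 144385736, minus strand) had peaks of 4 to 7 fragments at its most upstream starts in 3 of 5 libraries. Its most upstream start group, at 144385648 to 144385736, had a peak in control replicate 2 (144385265 to 144385351), HA-Bcl-xL replicate 2 (144385280 to 144385371) and HA-Bcl-xL replicate 3 (144385265 to 144385369). Control replicates 1 and 3 had none there. The 3 peaks lay in an intron with summits 424 to 460 bp downstream of the 5′ end and held 4, 4 and 7 fragments. Their percentile ranks were 3.65, 0.955 and 36.8, so 2 of the 3 were among the weakest peaks of their lists. The imprinted promoter of PLAGL1, shared with the noncoding gene HYMAI, is at the second start group (144328484 to 144329960). It had no peak in any library.

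SNRPN (ENSG00000128739, chromosome 15, 25068784 to 25223870, plus strand) had a peak in all 5 libraries, but just beyond the 1 kb window. The third of its start groups, at 25200082 to 25200152, is shared with SNURF and belongs to the Prader-Willi imprinting control region. The peaks began 1046, 1041 and 1623 bp from the nearest start in the control and 1109 and 1094 bp in the HA-Bcl-xL libraries, inside the intron downstream. Control replicates 1 and 2 and both HA-Bcl-xL libraries had peaks that overlapped one another, with limits of 25201198 to 25201524, 25201193 to 25201576, 25201261 to 25201526 and, in 2 pieces, 25201246 to 25201326 and 25201401 to 25201524. Control replicate 3 had a peak only at 25201775 to 25201885, where control replicate 1 also had one. The strongest peak, in HA-Bcl-xL replicate 2, ranked at the 91.7 percentile with 21 fragments. The lowest rank, 46.1, was in HA-Bcl-xL replicate 3. A peak in all 5 libraries within 2.5 kb of a start together with none within 1 kb was found for 0.564% of all genes, and a peak in all 5 within 2.5 kb for 19.2%. The upstream SNRPN start groups, at 25068784 to 25068872 and 25101698 to 25101748, had no peak.

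**Figure D2:**
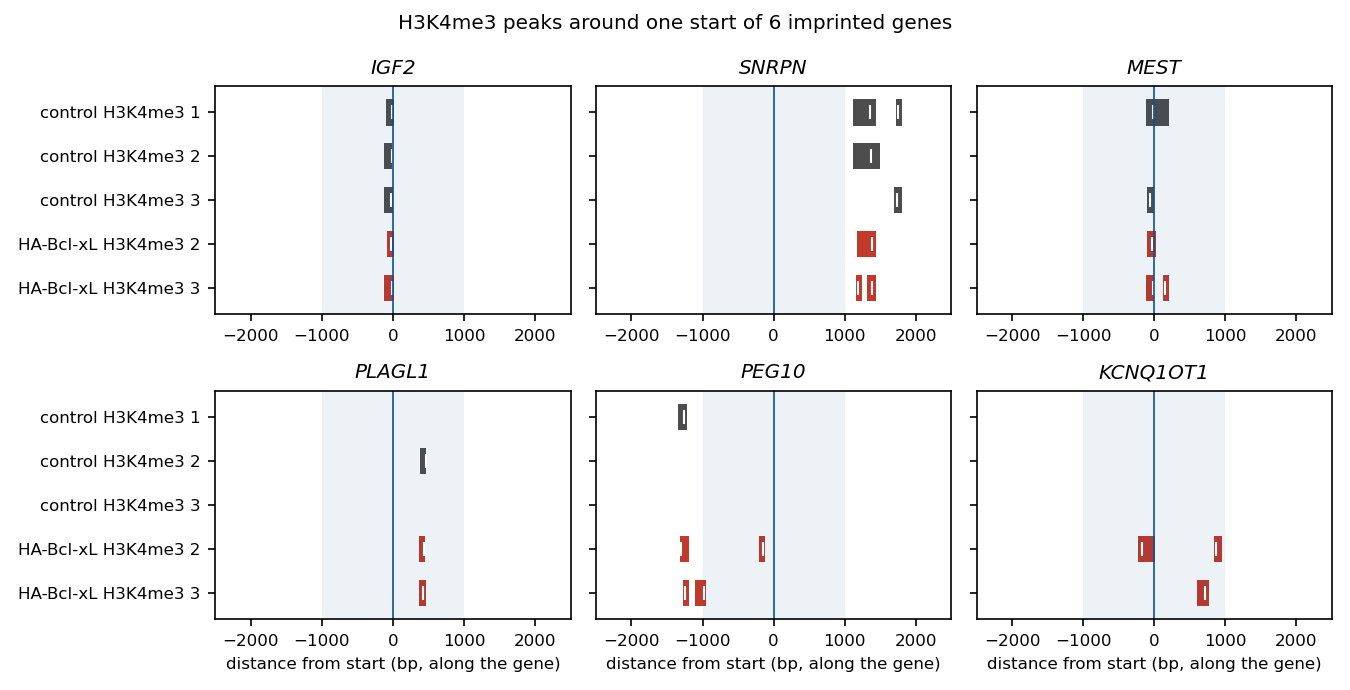
Deposited H3K4me3 peaks (bars, with the summit as a white tick) within 2.5 kb of one start group for 6 genes, in control (grey) and HA-Bcl-xL (red) libraries. The x axis is distance in bp along the direction of the gene, 0 is the most upstream start of the group, and the shading is 1 kb on each side. The IGF2 and MEST peaks lie at the start, the SNRPN peaks lie beyond the shading, and the KCNQ1OT1 bars are in the HA-Bcl-xL rows.

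KCNQ1OT1 and PEG10 were the members that separated the lines. KCNQ1OT1 (ENSG00000269821, chromosome 11, 2618538 to 2721233, minus strand) starts in an intron of KCNQ1, and its transcription from the paternal copy is known to silence neighbouring genes. HA-Bcl-xL replicate 2 had a peak over the start and another at 2720286 to 2720396, 816 bp from the nearest start. HA-Bcl-xL replicate 3 had one at 2720457 to 2720630. No control library had a peak within 10 kb, and the nearest control peak was 183 to 292 kb away. The 3 peaks did not overlap each other. They rested on 7, 6 and 8 fragments, and their percentile ranks were 21.7, 10.4 and 29.4, in the lower part of their lists.

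PEG10 (ENSG00000242265, chromosome 7, 94285637 to 94299007, plus strand) shares its start region with SGCE, a sarcoglycan gene that runs the other way. HA-Bcl-xL replicate 2 had a peak at 94285425 to 94285514, 123 bp from the start, in an untranslated exon of SGCE. HA-Bcl-xL replicate 3 had one at 94284525 to 94284685, 952 bp from the start, in an intron of SGCE. A position further into SGCE, about 1.2 kb from the PEG10 start, was marked in control replicate 1 (94284292 to 94284423) and in HA-Bcl-xL replicates 2 (94284323 to 94284445) and 3 (94284367 to 94284446). Control replicates 2 and 3 had none within 10 kb. The peaks held 12 to 21 fragments, and the one at 94284525 ranked at the 78.9 percentile, the others at the 16.5 to 34.6 percentile. Within 1 kb PEG10 was thus marked in both libraries of the HA-Bcl-xL line, at positions that did not overlap, and in none of the control line. Within 2.5 kb it was also marked in control replicate 1.

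**Figure D3:**
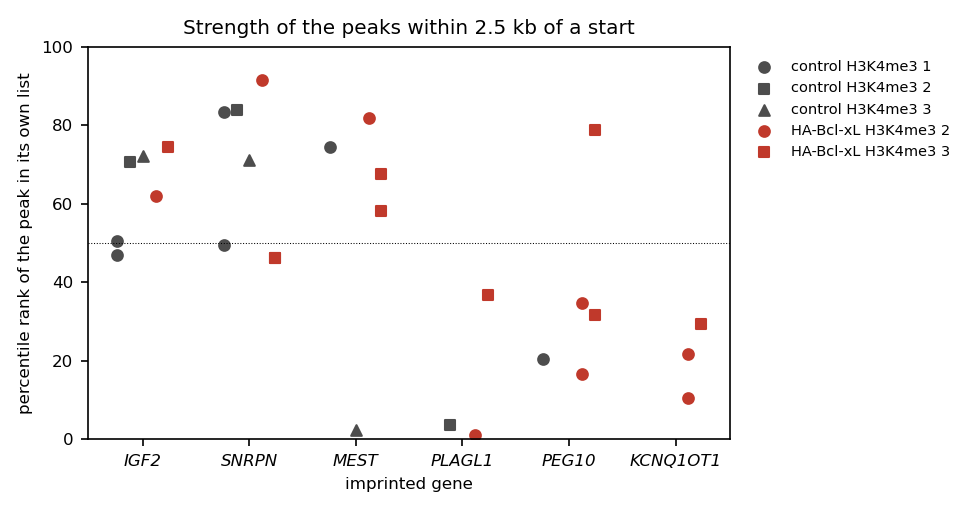
Percentile rank, by the authors' −log10 p, of each H3K4me3 peak within 2.5 kb of a start in its own library's list (y axis, 100 is the strongest) for 6 genes (x axis). Control libraries are grey and HA-Bcl-xL libraries red, with 1 marker shape per replicate. The IGF2 peaks lie between 46.9 and 74.5, while the KCNQ1OT1 peaks lie between 10.4 and 29.4.

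Within 1 kb of the 5′ end, 1 member had a peak in each control library and 4 in each HA-Bcl-xL library. In at least 1 library 4 members had one there, against 33.3% of all genes, and 0 members had one in all 5, against 14.2%. Within 1 kb of any start the numbers were 2 in each control library and 5 in each HA-Bcl-xL library. Within 2.5 kb of any start they were 4, 3 and 3 in control and 6 and 6 in HA-Bcl-xL libraries, and within 10 kb 6, 5 and 4 against 7 and 7. The groups did not overlap in any of these windows. Over all genes they did: 32.2, 25.9 and 22.6% had a peak within 1 kb of a start in control replicates 1 to 3, and 30.4 and 29.1% in the HA-Bcl-xL libraries. Marking of the HA-Bcl-xL line alone (each of its libraries, and none of the control line, with a peak less than 1 kb from the 5′ end) was found for KCNQ1OT1 and PEG10, 2 of the 10, against 0.589% of all genes. With any start the same 2 members had this pattern, against 0.628% of all genes. Within 2.5 and 10 kb of any start KCNQ1OT1 alone had it, against 0.664% and 0.702% of all genes. The reverse pattern was found for 0 members, and for 0.175% of all genes at the 5′ end and 0.165% at any start. The HA-Bcl-xL lists, of 16379 and 15497 peaks, were longer than those of control replicates 2 and 3, of 12159 and 10247, and shorter than the 17711 of control replicate 1. The members were a chosen list, so their number was not tested. With 2 libraries against 3 there are 10 splits, so the smallest exact permutation p, doubled for 2 sides, is 0.2 for any single value.

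The separation was smaller when weaker peaks were left out. With peaks of a −log10 q of at least 5, PEG10 kept a peak within 1 kb in each HA-Bcl-xL library and KCNQ1OT1 had no peak. The PEG10 peak of replicate 2 was just above this limit, at 5.05. That of replicate 3, at 11.03, lay 952 bp from the start and did not overlap it. The members with a peak at any start were then 2, 1 and 1 in control and 3 and 4 in HA-Bcl-xL libraries. At the 5′ end they were 1, 0 and 0 against 2 and 3. The groups did not overlap in either count, but no share of all genes per library was taken at this limit. Of all 38864 genes, 222 had the pattern of the HA-Bcl-xL line alone at the 5′ end, as PEG10 did. With the 10247 strongest peaks of each list, PEG10 had a peak within 1 kb in 1 HA-Bcl-xL library and KCNQ1OT1 in none. The members with a peak at any start were then 2, 1 and 2 in control and 2 and 4 in HA-Bcl-xL libraries, which overlap. At the 5′ end they were 1, 0 and 1 against 1 and 3, which also overlap.

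**Figure D4:**
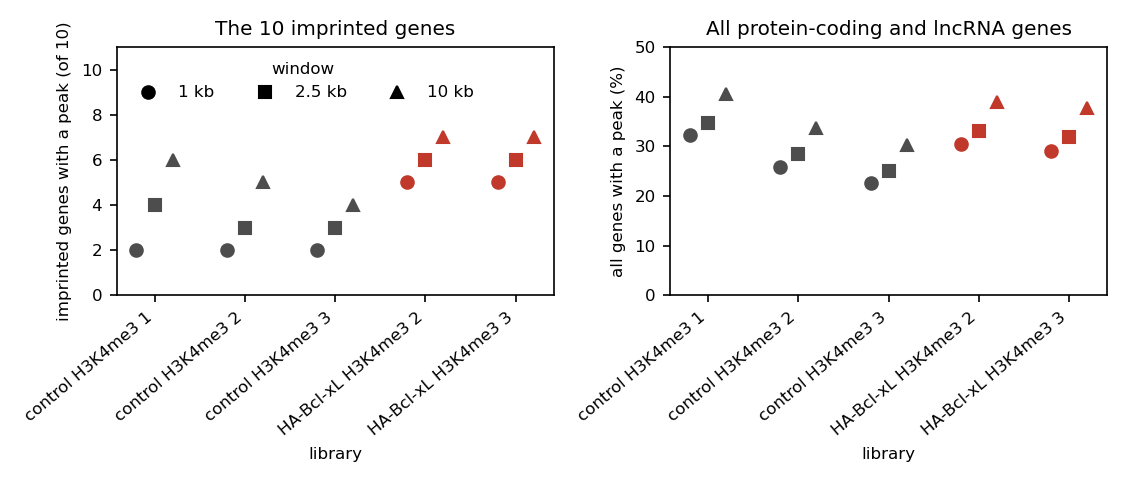
Left, number of the 10 imprinted genes with an H3K4me3 peak within 1, 2.5 and 10 kb of any start in each library. Right, percentage of all 38864 genes with such a peak. Control libraries are grey and HA-Bcl-xL libraries red. On the left the HA-Bcl-xL points lie above the control points in each window, and on the right they lie within the control range.

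NNAT, H19, MEG3 and PEG3 had no peak within 2.5 kb of a start in any library. NNAT (chromosome 20, 36149608 to 36152092, plus strand) lies in an intron of BLCAP, which is transcribed in the other direction. All 5 libraries, as for 23.1% of all genes within 10 kb, had peaks 5310 to 6790 bp from the NNAT starts at their nearest, around the upstream end of BLCAP at 36156333. A shared position upstream of that end was marked at 36156497 to 36156613, 36156443 to 36156605 and 36156462 to 36156601 in the control libraries. In the HA-Bcl-xL libraries it was marked at 36156443 to 36156604 and 36156307 to 36156620. The percentile ranks there were 84.4, 35.8 and 23.5 in control and 85.6 and 96.9 in HA-Bcl-xL libraries.

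H19 (chromosome 11, 2016396 to 2025782, minus strand) had a peak within 10 kb in 2 control libraries, 6658 and 6118 bp from its nearest start. The first, in replicate 1, covered 2010766 to 2010852 and the other, in replicate 2, covered 2011227 to 2011392. They did not overlap each other and lay within 1 kb of a start of MRPL23-AS1. The nearest peak to MEG3 (chromosome 14, 101245747 to 101327368, plus strand, 34 starts) was 50.5 to 494 kb away. The nearest to PEG3 (chromosome 19, 57321445 to 57352096, minus strand) was 351 to 400 kb away. A gene without an H3K4me3 peak within 10 kb of any start in any library was found for 50.6% of all genes. At this depth the absence of a peak was not read as absence of the mark.

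The 10 genes together had 38 start groups, and 6 of these, in 5 genes, had an H3K4me3 peak within 1 kb in at least 1 library. In base composition 13 of the 38 groups resembled CpG islands, with at least 50% GC and a CpG observed over expected ratio of at least 0.6 within 500 bp. Of those 13, 5 had a peak. No share over the start groups of all genes was computed, so these counts of groups have no background. At the 5′ ends alone, 6 of the 10 genes had this composition, against 39.8% of all genes, and 4 of the 6 had a peak within 1 kb in at least 1 library, near the 69.3% of all genes with such a 5′ end. The hexamer TGCCGC was within 500 bp of 5 of these 6 5′ ends, against 61.1% of all such 5′ ends. The groups without a called peak included NNAT (61.0% GC, ratio 0.852), the second group of PLAGL1 (53.5%, 0.797) and of MEST (60.1%, 0.699), and the first of PEG3 (62.9%, 0.669). The marked downstream group of IGF2 was GC-rich (66.2%) but had a ratio of 0.383.

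**Figure D5:**
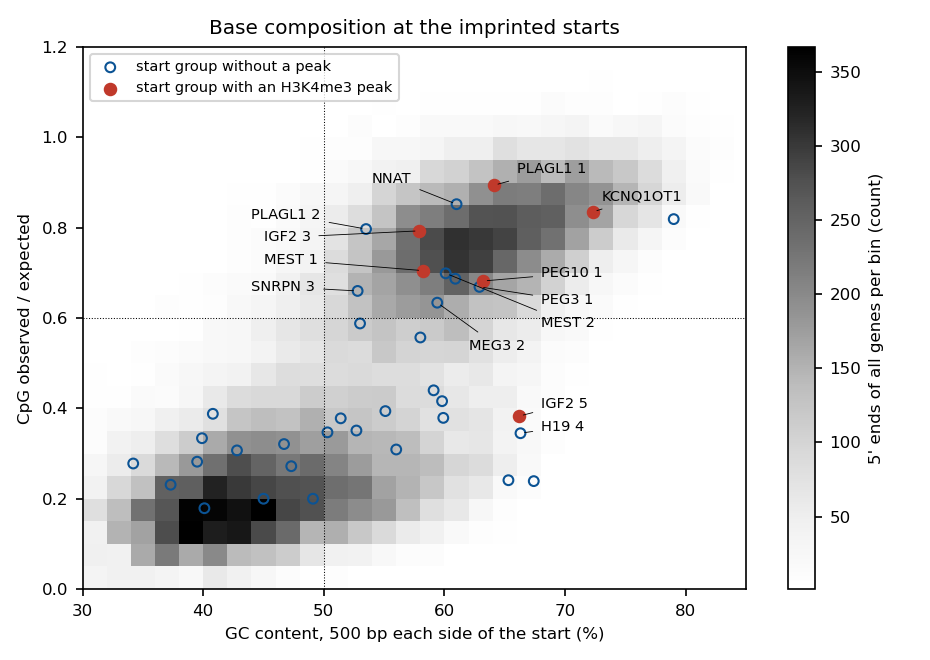
GC content (x axis, %) and CpG observed over expected ratio (y axis) within 500 bp of each of the 38 start groups, over the binned 5′ ends of all genes (grey). Red points are groups with an H3K4me3 peak within 1 kb in at least 1 library, open circles those without, dotted lines mark 50% and 0.6, and numbers after a name give the order of the group along its gene. Of the 13 groups at or above both lines, 5 are red, and the downstream IGF2 group is red at a ratio of 0.383.

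The peaks also differed in the background that the caller had set at their summit, as solved from fold and p. Relative to the floor of its own list, this background was 18.7 to 31.2 times at IGF2 and 27.2 to 33.9 times at PEG10. It was 11.5 to 16.4 times at SNRPN, 7.90 to 10.2 times at MEST, 6.62 to 7.92 times at KCNQ1OT1 and 2.92 to 4.34 times at PLAGL1. The median over all H3K4me3 peaks of a list was 7.96 to 10.5 times. IGF2 peaks were thus at the 86.1 to 93.0 percentile of their lists by background and PEG10 peaks at the 94.1 to 95.6 percentile, PLAGL1 peaks at the 14.2 to 21.8 percentile. The PEG10 and IGF2 peaks had 12 to 21 fragments at their summits, against 4 to 7 at PLAGL1.

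A list of other imprinted genes and of genes neighbouring imprinted loci gave a context for the 10. Imprinting of each listed gene was not checked. Of the 67 listed genes, 27 (40.3%) had a peak within 1 kb of a start in at least 1 H3K4me3 library, beside 38.2% of all genes. In all 5 libraries 8 (11.9%) had one, beside 17.1%. Per library 21, 15 and 14 of them had a peak in control and 18 and 19 in HA-Bcl-xL cells, so the groups overlapped. Within 1 Mb of a member, 13 of 39 had a peak in at least 1 library. PPP1R9A, PON2 and PON3 near PEG10, COPG2 near MEST and BLCAP over NNAT had one in all 5. SGCE had one in control replicate 1 and both HA-Bcl-xL libraries. UBE3A, the ubiquitin ligase gene downstream of SNRPN that is expressed from the maternal copy in neurons, was marked in every control library and 1 library of the HA-Bcl-xL line, as was NAP1L4 near KCNQ1OT1. TSSC4 had one in 2 control libraries, PHLDA2 and SLC22A18 in 1 library of each line, ASB4 in 1 control and ZNF264 in 1 HA-Bcl-xL library. IgG peaks lay within 1 kb of a start of 2 of the 67, MEG8 and OSBPL5. Of the 67, GRB10 and ZNF331 were marked in HA-Bcl-xL libraries alone, each in both, and none had the reverse, beside 0.628% and 0.165% of all genes. GRB10 is an adaptor of growth factor receptors, and its bases under peaks were 185 and 115 in the HA-Bcl-xL libraries.

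The genes most like a member in bases under peaks within 1 kb of a start were found by the mean absolute log2 difference over the 5 H3K4me3 libraries. DRC3 was nearest to IGF2 (0.138), DOLPP1 to MEST (0.0961) and COQ8A to PLAGL1 (0.0469). In control replicate 2 and the HA-Bcl-xL libraries COQ8A had 91, 91 and 117 bases, where PLAGL1 had 87, 92 and 105, and both had 0 in the other libraries.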

How the data were processed

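H3K4me3 and IgG CUT&RUN of control and HA-Bcl-xL BON1 cells was deposited as 1 narrowPeak list per library, so replicates were not pooled. Per the submitters' processing notes the tools were bcl2fastq 2.20, Trimmomatic 0.36, Bowtie2 2.2.9, MACS2 2.1.1 and deepTools 3.5.1 with build hg19; the caller's settings and duplicate treatment are not given in the sources used here. For each peak the authors deposited a score, a fold ratio, a −log10 p and a −log10 q. Peaks on chromosomes 1 to 22, X and Y and starts of GENCODE 44 on GRCh37 were used, 1-based. Fragments n and background at a summit were solved from fold = (n + 1) / (background + 1) and p as a Poisson tail, an inferred arithmetic that met 95.9 to 99.97% of peaks per list within 0.001. Counting error covers counts alone. Widths were tested with limma 3.58.1 (R 4.3.3), each library centred on its median, Benjamini-Hochberg adjusted, after a test on simulated data. Python 3.11.15, pandas 2.3.3 and scipy 1.17.1 were used.

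The members and lists were chosen with earlier results of these data known. Named genes were all members, listed neighbours within 1 Mb with a peak, listed genes in all libraries of 1 line and none of the other, and the gene most like each member with peaks in at least 3 libraries. The CpG limits were set with the peaks in view. Results were recomputed with a −log10 q minimum of 5, lists cut to one length, other windows, IgG-overlapping peaks removed, summits in the window, no centring, the replicate number as a block and each library left out in turn. Sequences are printed for selected peaks, and 1 that had been selected is not reported here.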

Additional observations from a re-analysis of the deposited data

How the results depend on the processing

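Where a count of members was unchanged by a setting, this holds for the settings named here. The difference in members with a peak within 1 kb of the 5′ end, HA-Bcl-xL minus control, was 3, and so was that for any start. Both were 2.167 with a −log10 q of at least 5 and 1.333 with equal list lengths. For the 5′ end it was 2.667 with a window of 2.5 kb and 2.667 with 10 kb; for any start it was 2.667 and 2. Leaving out 1 library gave 3 to 3 for both, and removing IgG-overlapping peaks or asking for the summit left both at 3. The SD within each line was 0, so any change counted as a move. Members with an H3K4me3 peak exceeded those with an IgG peak by 3.2 per library, and by 5.8 with 10 kb. For the 67 listed imprinted and neighbouring genes the difference of 1.833 was 0.333 with 2.5 kb and 1 with the summit in the window. It was 1.333 with 10 kb or equal list lengths, 2 with a −log10 q of at least 5, and 0.5 to 4 with 1 library left out. Genes marked at the 5′ end in HA-Bcl-xL libraries only numbered 229, and 292 to 804 with 1 library left out, the most without control replicate 1. Genes marked in control libraries only numbered 68, 110 with equal list lengths, and 105 to 322 with 1 library left out. The cause was not tested, though with fewer libraries fewer must agree.

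For width, 0 genes passed under each other setting except the replicate block, which gave 11. That block leaves few residual degrees of freedom, because replicate 1 has a control library alone. Leaving out 1 control library gave 0 or 1, the 1 without control replicate 2. Without either HA-Bcl-xL library 1 remains in that line, and it is then assumed to vary like the control libraries. The number of genes passing is therefore not given for those fits. Same-numbered libraries of the 2 lines had deviations correlated by 0.009 and 0.037, and the numbers were not taken to pair them. With 2 HA-Bcl-xL libraries the deviations of that line mirror each other, so these correlations cannot decide whether the libraries were paired. With the replicate block the IGF2 difference was -0.30 (adjusted p 0.998 by limma), and it was -0.71 to -0.06 with 1 library left out. Member peaks within 2.5 kb held 4 to 21 fragments at their summits, which limits the precision of each call.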
